A study of Homo sapiens with 21 samples.

Results

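The data described here are the counts of 9 genes of the tissue factor and plasminogen activator system (F3, TFPI, TFPI2, THBD, PROCR, PLAT, PLAU, PLAUR and SERPINE2), out of 42339 genes in the count table. The members were chosen by symbol, and the set was selected on a measured value, in that F3 had no count in 2D cells and at least 2564 counts in every mammosphere library. The 3D vs. 2D values of the members are therefore given as a description, with no test. The study asked how the transmembrane mucin MUC1 and the transcription factor MYC shape the transcriptome of stem-like cells from triple-negative breast cancer (TNBC). Total RNA from BT-549 cells, an established BRCA1 wild-type TNBC line, was sequenced as stranded mRNA libraries. All 7 groups are labelled as this line and held 3 libraries each. The 2D cells were grown in RPMI1640 with serum and insulin, and the 3D cells were passage 6 mammospheres grown without attachment in MammoCult medium, so that growth format, medium, passage and the history of the cultures, which the labels do not give, cannot be told apart. Another group was such 3D cells treated with 0.75 µM GO-203, a peptide inhibitor of the MUC1-C subunit. The tet-MUC1shRNA mammospheres (passage 6) and the tet-MYCshRNA mammospheres (passage 8) carried a doxycycline-inducible shRNA and received either 0.1% DMSO as vehicle or 500 ng/ml doxycycline (DOX). Each target was silenced with 1 shRNA, and no DOX-treated control shRNA was analysed here, so an effect of silencing and an effect of DOX itself cannot be told apart.

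Tissue factor, the product of F3, is the membrane receptor of clotting factor VII, and the complex of both starts the extrinsic clotting cascade. TFPI inhibits that complex together with factor Xa, and TFPI2 is a related Kunitz-type inhibitor of plasmin and other serine proteases. Thrombomodulin (THBD) and the endothelial protein C receptor (PROCR) act together on vessel walls to activate protein C, which slows clotting. The urokinase-type (PLAU) and tissue-type (PLAT) activators cleave plasminogen to plasmin, PLAUR is the membrane receptor that holds urokinase at the cell surface, and SERPINE2 (protease nexin-1) inhibits thrombin, urokinase and plasmin. In tumors these proteins are known for pericellular proteolysis, invasion and a raised risk of thrombosis.

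Depth ranged from 38026597 to 99751717 total counts per library. MUC1 was at 89.4 ± 9.79 CPM (counts relative to the library total, which was scaled by TMM factors over the 21 libraries, given as mean ± SD with n = 3 throughout) with vehicle and 21.6 ± 1.48 with DOX in the tet-MUC1shRNA mammospheres, and MYC was at 418 ± 32.6 and 275 ± 32.9 in the tet-MYCshRNA mammospheres. The log2 fold changes were -2.06 for MUC1 (adjusted p = 2.97e-15) and -0.62 for MYC (adjusted p = 9.05e-05), both from edgeR's quasi-likelihood test. MUC1 itself rose on MYC silencing, with a log2 fold change of 1.25 (adjusted p = 5.06e-06). Of the receptor genes that define a triple-negative line, ESR1 stayed at or below 1.49 CPM and PGR at or below 0.0706 in every library, while ERBB2 was at 18.2 to 42.3. The epithelial genes EPCAM and CDH1 stayed at or below 0.122 and 1.55 CPM, and the mesenchymal filament gene VIM was between 1067 and 2507. The libraries labelled as replicates are cultures of 1 line grown in triplicate, so a p-value measures the spread between these cultures only.

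The promoter sequences shown are those of F3, on which the set was selected, and of PROCR, SERPINE2 and PLAU, the members with the largest tested changes. Each runs from 250 bases before to 50 bases after a transcription start in RefSeq (GRCh38.p14) and is written 5′ to 3′ on the strand of the gene. Capitals mark matches to 4 motifs searched on both strands: CACGTG (the E-box that MYC-MAX dimers bind), ACGTG (the core bound by hypoxia-inducible factors, which overlaps the E-box), TGANTCA (the AP-1 motif) and GGGCGG (the GC box bound by SP1). SERPINE2 and PLAU each have 2 windows, of which the one with more matches is shown. For SERPINE2 the E-box site counts under both CACGTG and ACGTG, and by distinct sites its 2 windows are equal. The F3 window is chr1:94541710-94542009 (minus strand), the PROCR window chr20:35171822-35172121 (plus strand), the SERPINE2 window chr2:224031429-224031728 (minus strand) and the PLAU window chr10:73910882-73911181 (plus strand).
F3: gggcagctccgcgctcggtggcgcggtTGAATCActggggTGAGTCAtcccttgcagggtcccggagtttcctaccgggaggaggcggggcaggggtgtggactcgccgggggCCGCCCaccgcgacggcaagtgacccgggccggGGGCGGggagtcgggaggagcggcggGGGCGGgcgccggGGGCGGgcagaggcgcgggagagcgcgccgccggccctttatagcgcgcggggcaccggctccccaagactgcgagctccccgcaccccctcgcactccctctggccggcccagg
PROCR: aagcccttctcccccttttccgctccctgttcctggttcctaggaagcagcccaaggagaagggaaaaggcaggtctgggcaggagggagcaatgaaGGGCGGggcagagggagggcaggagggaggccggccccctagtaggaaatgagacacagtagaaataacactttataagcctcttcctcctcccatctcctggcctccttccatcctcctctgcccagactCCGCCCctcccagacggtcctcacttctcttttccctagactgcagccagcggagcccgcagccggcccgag
SERPINE2: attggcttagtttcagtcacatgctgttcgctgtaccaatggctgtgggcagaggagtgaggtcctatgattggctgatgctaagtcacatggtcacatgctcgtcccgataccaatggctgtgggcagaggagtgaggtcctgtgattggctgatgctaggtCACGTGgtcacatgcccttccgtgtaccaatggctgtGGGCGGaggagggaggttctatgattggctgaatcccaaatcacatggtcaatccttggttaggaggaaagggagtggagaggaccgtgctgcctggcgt
PLAU: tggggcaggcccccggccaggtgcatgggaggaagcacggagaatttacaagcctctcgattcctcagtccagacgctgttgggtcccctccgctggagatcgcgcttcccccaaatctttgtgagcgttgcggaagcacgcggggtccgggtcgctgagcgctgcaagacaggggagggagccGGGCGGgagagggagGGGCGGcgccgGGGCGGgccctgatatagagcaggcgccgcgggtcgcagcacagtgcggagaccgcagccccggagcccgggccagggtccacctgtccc

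F3 held 2 matches to TGANTCA and 4 to GGGCGG, and none to CACGTG or ACGTG. SERPINE2 held 1 E-box, which also gives both of its ACGTG matches (1 on each strand), and 1 GC box, while its window at chr2:224038591-224038890 held 2 GC boxes. PROCR held 2 GC boxes and PLAU 3, and the upstream PLAU window at chr10:73910360-73910659 had none of the 4 motifs. Among the members whose windows are not printed, TFPI2 held 1 AP-1 motif and 2 GC boxes, PLAUR 1 AP-1 motif and 1 ACGTG, and TFPI none. Of the 35116 windows of the table, 7.256% held CACGTG, 21.409% ACGTG, 7.709% TGANTCA and 44.954% GGGCGG, so that a GC box is a common feature of such windows. A match is a description of the letters only. THBD had no window in the table, and the PLAT window was not used here.

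F3 (ENSG00000117525.14, chr1:94529173-94541759, minus strand, 6 exons) had 0 counts in each of the 3 2D libraries, out of 158697392 counts in all. The 3D libraries held 6433, 7316 and 9736 F3 counts, which are 131, 141 and 147 CPM, and the lowest count in any of the 18 mammosphere libraries was 2564. F3 was thus undetected in 2D cells and abundant in every mammosphere library, with no overlap. A count of 0 allows up to 3 counts, or 0.0529 to 0.0669 CPM per 2D library, and against that floor F3 was at least 2413.5-fold higher in 3D cells. Such a floor takes counts as independent and covers counting error only, and among the counts deposited 69.9% of those from 1 to 100 of protein-coding genes with several exons are even, so that the bound would be lower if 1 fragment gave a pair of counts. In bulk RNA, more cells that express a gene and more RNA per cell cannot be told apart.

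The other mammosphere groups fell into 2 bands of F3 level. GO-203-treated 3D cells had 134, 137 and 145 CPM and DOX-treated tet-MYCshRNA mammospheres 143, 144 and 140.4. Vehicle-treated tet-MUC1shRNA mammospheres had 83.6, 72.6 and 84.1 CPM, and the vehicle-treated tet-MYCshRNA mammospheres had 80.1, 83.4 and 86.5. The lowest group was the DOX-treated tet-MUC1shRNA mammospheres, at 63.8, 72.7 and 57.8 CPM. In the order of group means, 3D, GO-203-treated 3D and DOX-treated tet-MYCshRNA libraries overlapped with their neighbours at the top, as did both vehicle groups and DOX-treated tet-MUC1shRNA below, and the only gaps were the one between these bands and the one to 2D cells. The vehicle groups differ from the 3D cells in shRNA vector and vehicle, and 1 of them in passage, which cannot be told apart.

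**Figure D1:**
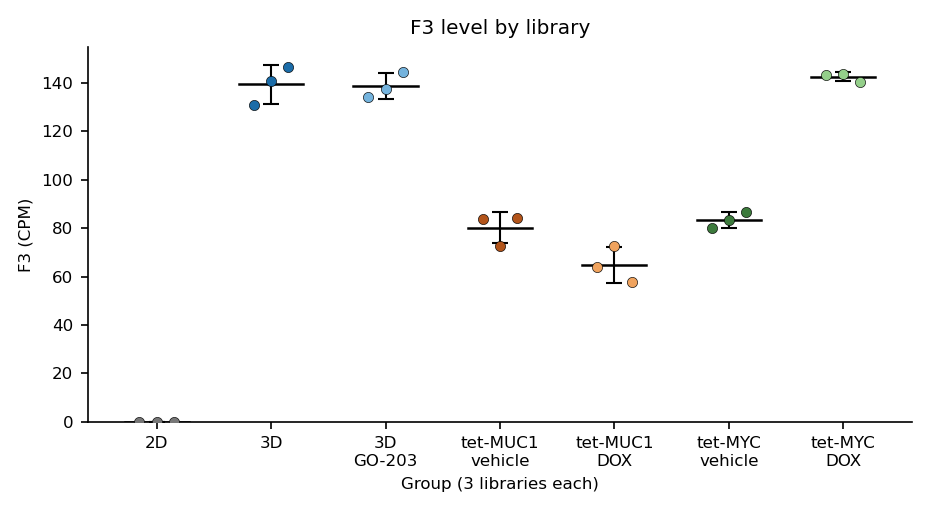
F3 level in CPM (vertical axis, linear) in each of the 21 libraries, by group (horizontal axis). Points are libraries, long bars are group means and error bars are SD (n = 3). The 2D libraries lie at 0, the 3D, GO-203-treated 3D and DOX-treated tet-MYCshRNA libraries between 131 and 147 CPM, and the other 3 groups between 57.8 and 86.5 CPM.

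The genes beside F3 were chosen after their values were seen. ABCD3, a peroxisomal transporter gene that ends 10507 bases away, was at 134 ± 6.95 CPM in 2D and 137 ± 6.32 in 3D cells, a difference within 1 SD. CNN3 and ARHGAP29, also within 500 kb, were at 519 ± 23.5 and 191 ± 5.95 CPM in 2D cells and at 499 ± 21.9 and 185 ± 3.58 in 3D cells. ALG14, further out, went from 16.7 ± 0.967 to 8.04 ± 0.256 CPM. Low neighbours were SLC44A3, at 1.33 ± 0.150 CPM in 2D and 0.896 ± 0.119 in 3D cells, and ABCA4, at 0.148 ± 0.0679 and 0.0201 ± 0.0348. None of these neighbours was at 0 in 2D cells.

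Endothelial cells are known for THBD, PROCR, TFPI and PLAT, and blood cells such as monocytes can carry tissue factor. Markers of these cells were therefore read in the same libraries. The summed CPM of 5 endothelial markers was 1.07 to 1.80 in 2D libraries, 6.29 to 7.81 in 3D, 6.64 to 7.30 with GO-203, 5.86 to 6.04 and 5.90 to 7.03 in tet-MUC1shRNA vehicle and DOX libraries, and 6.96 to 8.24 and 10.5 to 12.4 in tet-MYCshRNA vehicle and DOX libraries. PECAM1 was at 0.0118 ± 0.0204 CPM in 2D and 6.62 ± 0.688 in 3D cells. It fell on MUC1 silencing, from 4.01 ± 0.111 to 3.02 ± 0.349 CPM (log2 fold change -0.43, adjusted p = 0.0209, edgeR), and rose on MYC silencing, from 6.79 ± 0.467 to 9.40 ± 0.790 CPM (0.45, adjusted p = 0.00629). PECAM1 thus moved in the direction of F3 in these 3 comparisons, and its part in the F3 values was not tested. The defining endothelial genes CDH5 and VWF stayed at or below 0.104 and 0.176 CPM in every library, and CDH5 was at 0 in all but 1. The endothelial receptor gene KDR rose on MUC1 silencing, from 0.197 ± 0.0720 to 1.26 ± 0.291 CPM (log2 fold change 2.66, adjusted p = 2.28e-06, on 6 to 12 counts with vehicle, so that it passed the filter through the DOX group), and on MYC silencing, from 0.399 ± 0.132 to 1.41 ± 0.0908 CPM (log2 fold change 1.77, adjusted p = 5.02e-04). TEK was at 0.198 to 2.43 CPM over the libraries and fell in 3D vs. 2D cells (-1.16, adjusted p = 0.00389), with no call on MUC1 silencing (0.34, adjusted p = 0.171), on MYC silencing or under GO-203. The 4 blood cell markers summed to 1.16 to 1.85 CPM in 2D, 0.407 to 0.693 in 3D and at most 1.35 CPM in the other libraries. Of these, the monocyte marker CD14 was at 0.0683 ± 0.0670 CPM in 2D and 0.432 ± 0.142 in 3D cells, on 0 to 6 and 18 to 28 counts, in the direction of F3. The leukocyte marker PTPRC was at 1.28 ± 0.218 and 0.0621 ± 0.0465 CPM, in the other direction. The part of CD14 in the F3 values was not tested. The 2 platelet markers summed to at most 0.622 CPM in any library.

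No change of F3 was detected under GO-203. The log2 fold change was 0.01 (95% interval -0.11 to 0.14, adjusted p = 0.924 by edgeR's quasi-likelihood test with Benjamini-Hochberg adjustment, used for every adjusted p below), and its sign turned with the libraries included. The 3D libraries in this comparison are the same as those compared with 2D cells. On MUC1 silencing F3 fell by 0.32 on the log2 scale (SE 0.065, adjusted p = 3.10e-04), although the highest DOX library touched the lowest vehicle library. Scaling by library size alone, which moves the median of all genes by 0.17 in this comparison, gave -0.15 (adjusted p = 0.0445), and less that shift -0.32. On MYC silencing F3 rose, in libraries that did not overlap, with a log2 fold change of 0.76 (SE 0.066, adjusted p = 5.09e-06).

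TFPI (ENSG00000003436.16, chr2:187464230-187565760, minus strand), the inhibitor of the tissue factor complex, was counted at 69.9, 73.8 and 77.6 CPM in 2D and 156, 160.1 and 171 in 3D libraries, a ratio of 2.20. It was at 86.3, 89.5 and 92.6 CPM in vehicle and 174, 166 and 159 in DOX libraries of the tet-MUC1shRNA mammospheres. The groups did not overlap, and TFPI rose on MUC1 silencing with a log2 fold change of 0.88 (SE 0.046, adjusted p = 8.74e-13). In tet-MYCshRNA mammospheres it was at 151, 147 and 148 CPM with vehicle and 214, 194 and 202 with DOX. It rose there too, with a log2 fold change of 0.43 (SE 0.066, adjusted p = 2.85e-04). With GO-203 it was at 165, 155 and 176 CPM, which overlaps the 3D libraries, and the log2 fold change of 0.04 (95% interval -0.08 to 0.17) did not pass the test.

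TFPI2 (ENSG00000105825.14, chr7:93885396-93890753, minus strand), the Kunitz-type inhibitor that acts on plasmin, went from 20.6, 18.4 and 21.8 CPM in 2D to 95.01, 92.4 and 96.5 in 3D libraries, a ratio of 4.68. Its highest levels were on MUC1 silencing, with 198, 204 and 196 CPM in vehicle and 448, 426 and 384 in DOX libraries. The groups were far apart, and TFPI2 rose with a log2 fold change of 1.06 (SE 0.045, adjusted p = 3.08e-14). On MYC silencing it went from 111, 109.5 and 109 to 212, 194 and 184 CPM. That rise, a log2 fold change of 0.83 (SE 0.076, adjusted p = 7.64e-06), also left no overlap between the groups. With GO-203 TFPI2 was at 86.1, 81.8 and 89.7 CPM, all below the 3D libraries, and the log2 fold change of -0.12 (95% interval -0.24 to -0.0013, adjusted p = 0.162) did not pass, although DESeq2 called it (adjusted p = 0.087).

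Because F3, TFPI and TFPI2 moved by different amounts, the ratio of F3 to the sum of TFPI and TFPI2 was formed within each library, on levels per kb of exon (CPM per kb). TFPI2, an inhibitor of plasmin, is the larger part of that sum. In tet-MUC1shRNA mammospheres it was at 81.5 with vehicle and 172 CPM per kb with DOX, against 7.64 and 14.2 for TFPI. The ratio is thus not a measure of tissue factor against the inhibitor of its complex. This ratio and the next were chosen after the values were seen and have no test. The ratio was 0.918 ± 0.0438 in 3D cells and 0.978 ± 0.0388 with GO-203. It was 0.312 ± 0.0306 with vehicle and 0.121 ± 0.0114 with DOX in tet-MUC1shRNA mammospheres. In tet-MYCshRNA mammospheres it was 0.502 ± 0.0236 and 0.506 ± 0.0292, and the libraries overlapped. DOX and vehicle were thus not separated by this ratio in the tet-MYCshRNA mammospheres, whereas in the tet-MUC1shRNA mammospheres the DOX libraries lay below all vehicle libraries.

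**Figure D2:**
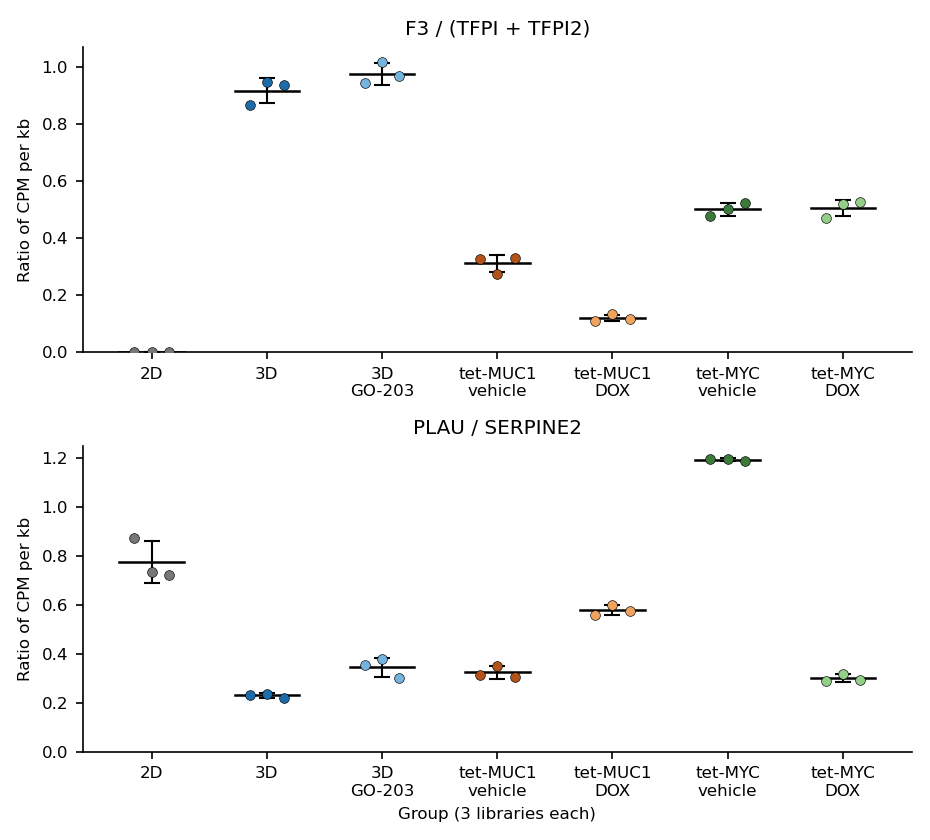
Ratios within each library of levels per kb of exon (vertical axes, linear, no unit), by group (horizontal axis): F3 over TFPI plus TFPI2 above and PLAU over SERPINE2 below. Points are libraries, long bars are means and error bars are SD (n = 3). The upper ratio is 0 in 2D cells, 0.868 to 1.02 in 3D cells with or without GO-203 and 0.112 to 0.134 with DOX in tet-MUC1shRNA mammospheres, and the lower ratio is highest, at 1.19 to 1.199, with vehicle in tet-MYCshRNA mammospheres.

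The endothelial cofactors of protein C activation were near the floor of the assay. THBD (ENSG00000178726.7, chr20:23045633-23049672, minus strand, 1 exon) had 4, 2 and 0 counts in 2D and 20, 8 and 6 in 3D libraries, a CPM ratio of 5.21 with next to no gap between the groups (0.0892 CPM highest in 2D, 0.0904 lowest in 3D). It had 8, 0 and 18 counts with GO-203, 6, 4 and 4 with vehicle and 2, 10 and 16 with DOX in tet-MUC1shRNA, and 36, 64 and 26 with vehicle and 28, 20 and 10 with DOX in tet-MYCshRNA libraries. All 21 counts are even, and 78.7% of the counts from 1 to 100 of 1-exon protein-coding genes are even in this table, so the counts cannot be read as independent fragments. THBD passed the filter on low counts only for MYC silencing among the single comparisons, where its log2 fold change was -0.57 (95% interval -1.58 to 0.43, adjusted p = 0.321). No difference on MYC silencing was detectable at this depth with all libraries, and without the first DOX library the log2 fold change was -1.07 (adjusted p = 0.0724).

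PROCR (ENSG00000101000.6, chr20:35172072-35216240, plus strand), the protein C receptor, stayed below 3 CPM in every library. It was at 0.402, 0.338 and 0.247 CPM in 2D and 1.18, 0.770 and 0.994 in 3D libraries, which rests on 14 to 19 and 40 to 66 counts and gives a ratio of 2.98 with no overlap. In tet-MYCshRNA mammospheres it went from 2.92, 2.81 and 2.37 CPM with vehicle to 0.396, 0.711 and 0.500 with DOX. The groups lay well apart, and PROCR fell on MYC silencing by 2.34 on the log2 scale (SE 0.24, adjusted p = 1.66e-05), the largest tested change of any member. On MUC1 silencing the log2 fold change was -0.40 (95% interval -0.96 to 0.16, adjusted p = 0.214). With GO-203 PROCR was at 0.486, 0.256 and 0.863 CPM, and its log2 fold change of -0.81 did not pass (adjusted p = 0.14), while without the third GO-203 library it was -1.36 (adjusted p = 0.0319). PROCR was also called there with a replicate block (-0.90, adjusted p = 0.0572) and with all 21 libraries in one fit (-0.82, adjusted p = 0.0993). PROCR shares 12.8% of its exon bases with an antisense gene, ENSG00000278367, which was at or below 0.0541 CPM.

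PLAU (ENSG00000122861.16, chr10:73909177-73917496, plus strand), which encodes urokinase, was the only member besides PLAT with a lower mean in 3D than in 2D cells. It was at 57.2, 61.8 and 62.8 CPM in 2D and 34.9, 34.8 and 35.5 in 3D libraries, a ratio of 0.578 with no overlap. In tet-MUC1shRNA mammospheres PLAU was at 51.9, 53.1 and 47.2 CPM with vehicle and 130.1, 137 and 123 with DOX. This rise on MUC1 silencing, a log2 fold change of 1.35 (SE 0.052, adjusted p = 9.05e-15), was the largest of any member in that comparison, and the groups did not overlap. GO-203 also raised PLAU, to 45.7, 46.5 and 41.7 CPM, with a log2 fold change of 0.36 (SE 0.06, adjusted p = 1.35e-04). MYC silencing went the other way. PLAU was at 93.3, 90.8 and 83.4 CPM with vehicle and 54.8, 61.7 and 61.4 with DOX, and fell by 0.60 on the log2 scale (SE 0.068, adjusted p = 3.19e-05). PLAU shares 31.0% of its exon bases with the antisense gene C10orf55, which was at 0.345 to 1.48 CPM and at least 36.8-fold below PLAU in every library. The strand setting of the counting is not given in the sources used here.

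PLAUR (ENSG00000011422.12, chr19:43646095-43670547, minus strand), the urokinase receptor, was at 21.3, 24.8 and 20.7 CPM in 2D and 55.4, 51.6 and 54.2 in 3D libraries, a ratio of 2.41 with no overlap. GO-203 brought it to 32.6, 30.4 and 29.6 CPM, between those groups. PLAUR fell there by 0.78 on the log2 scale (SE 0.06, adjusted p = 3.17e-09), with the smallest adjusted p of any member under GO-203. On MUC1 silencing PLAUR was at 56.1, 51.0 and 49.98 CPM with vehicle and 54.5, 56.5 and 50.3 with DOX. These groups overlapped, and the log2 fold change of 0.03 (95% interval -0.09 to 0.15) did not pass, and with library size alone it was 0.20 (adjusted p = 0.00305), of which 0.17 is the shift of all genes and 0.03 remained. On MYC silencing it went from 112, 109 and 99.8 to 56.0, 73.2 and 67.8 CPM and fell by 0.72 on the log2 scale (SE 0.088, adjusted p = 5.99e-05).

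PLAT (ENSG00000104368.19, minus strand), the tissue-type activator, was low in 2D and 3D cells, at 3.52, 5.04 and 4.62 and 3.58, 3.81 and 3.59 CPM, and these libraries overlapped. The vehicle-treated tet-MUC1shRNA mammospheres stood apart, with 31.5, 33.5 and 35.6 CPM, and the DOX libraries of that line had 21.7, 19.0 and 17.1. PLAT fell there by 0.81 on the log2 scale (SE 0.075, adjusted p = 8.18e-09) and still lay above every library of the other lines. With GO-203 PLAT was at 2.43, 2.31 and 2.41 CPM and fell by 0.60 on the log2 scale (adjusted p = 0.0127). On MYC silencing it went from 6.75, 7.58 and 7.07 to 10.0, 12.4 and 11.8 CPM, a rise with a log2 fold change of 0.66 (SE 0.11, adjusted p = 6.70e-04).

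SERPINE2 (ENSG00000135919.14, chr2:223975045-224039318, minus strand), the inhibitor of thrombin and urokinase, was at 199, 256 and 265 CPM in 2D and 454, 444 and 493 in 3D libraries, a ratio of 1.93 with no overlap. Vehicle-treated tet-MYCshRNA mammospheres overlapped the 2D libraries, with 237, 230.2 and 213 CPM, and the DOX libraries had 573, 587 and 636. The groups did not overlap, and SERPINE2 rose with a log2 fold change of 1.38 (SE 0.06, adjusted p = 5.16e-08), the largest rise of any member on MYC silencing. On MUC1 silencing it went from 501, 458 and 470.1 to 707, 695 and 646 CPM, a rise with a log2 fold change of 0.51 (SE 0.042, adjusted p = 1.41e-09). With GO-203 it was at 392, 374 and 418 CPM and fell by 0.21 on the log2 scale (SE 0.056, adjusted p = 0.00851).

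**Figure D3:**
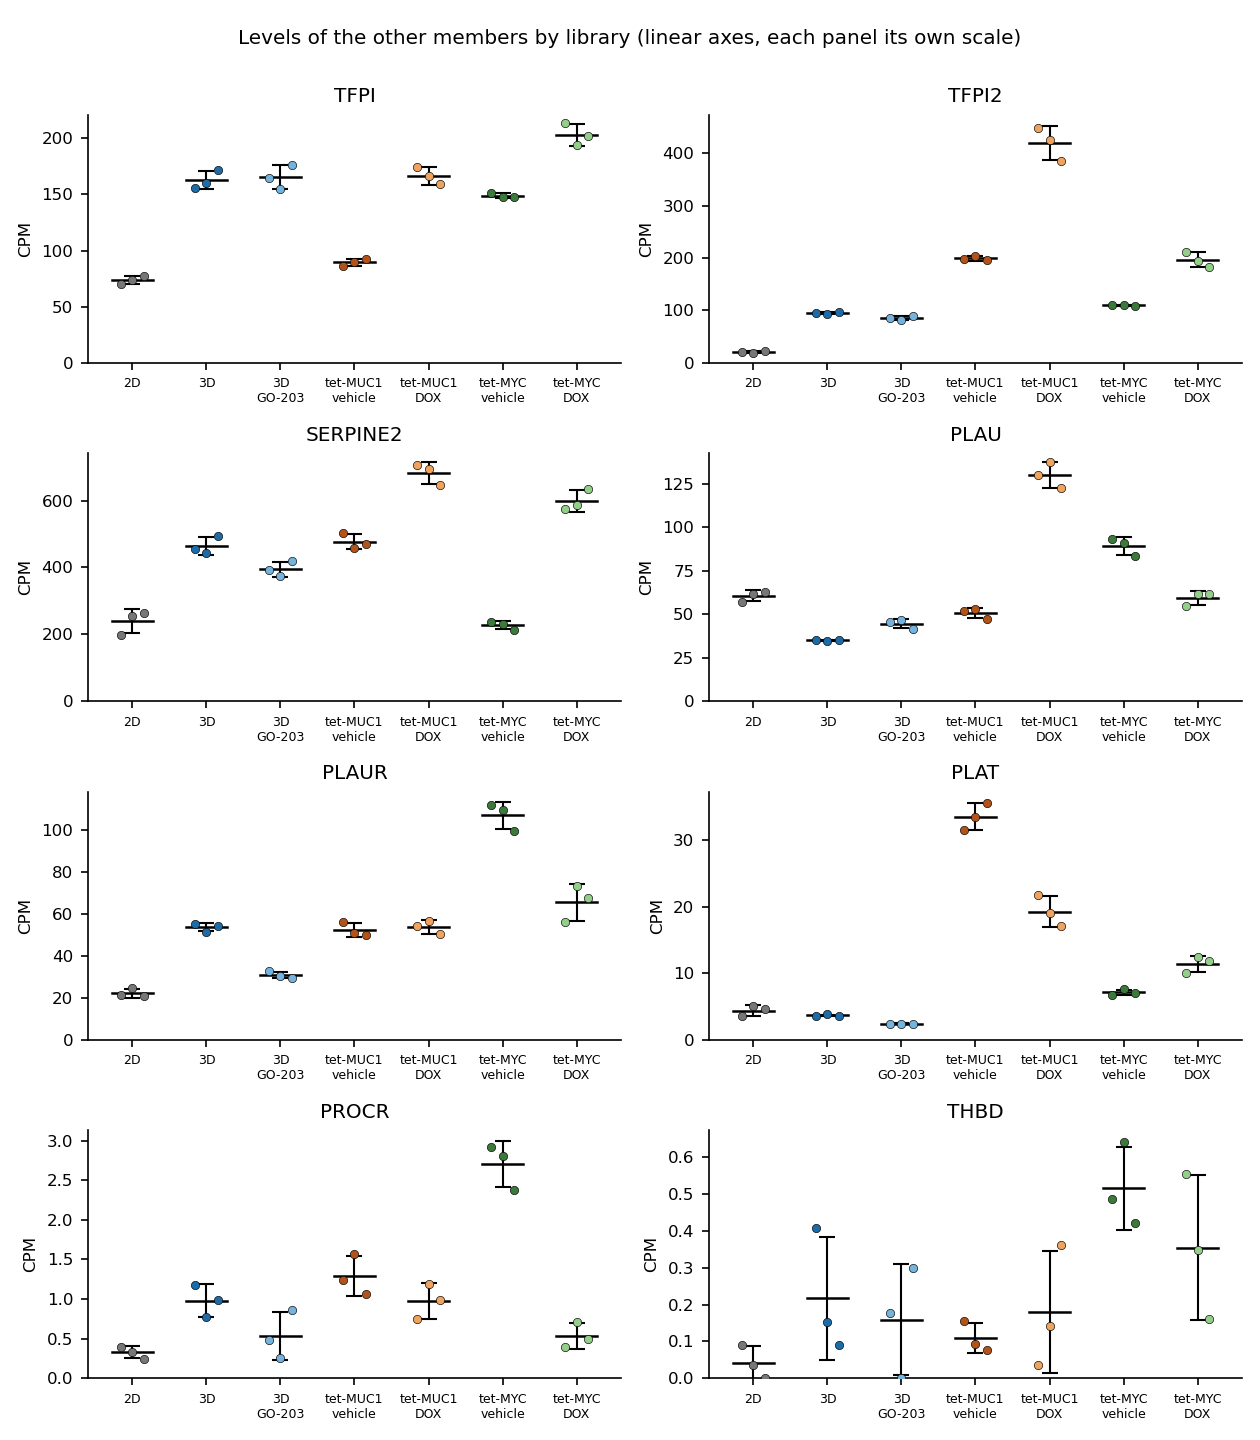
Levels in CPM (vertical axes, linear, each panel on its own scale) of the 8 members other than F3 in each of the 21 libraries, by group (horizontal axes). Points are libraries, long bars are means and error bars are SD (n = 3), with bars that would pass below 0 ending there. TFPI2, PLAU and SERPINE2 are highest with DOX in tet-MUC1shRNA mammospheres, at up to 448, 137 and 707 CPM, PLAT is highest with vehicle in that line, and PLAUR and PROCR are highest with vehicle in tet-MYCshRNA mammospheres.

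Per kb of exon, the levels of the members were set side by side. The divisor is the union of all annotated exons of a gene, 2.886 kb for F3, 8.957 for SERPINE2 and 11.714 for TFPI. The transcript in use can be shorter than this union, so levels and ratios between genes depend on the divisor. In 2D cells the highest were SERPINE2 at 26.8 ± 4.01 and PLAU at 20.6 ± 1.02 CPM per kb, followed by TFPI2 at 8.28 ± 0.704 and TFPI at 6.30 ± 0.329. In 3D cells SERPINE2 (51.8 ± 2.88) and F3 (48.3 ± 2.81) differed by less than the sum of their SDs, with TFPI2 next at 38.7 ± 0.841 and TFPI, PLAUR and PLAU between 11.9 and 13.9 CPM per kb. With DOX in tet-MUC1shRNA mammospheres TFPI2 led at 172 ± 13.2 CPM per kb. With vehicle in tet-MYCshRNA mammospheres PLAU (30.2 ± 1.74), F3 (28.9 ± 1.10), SERPINE2 (25.3 ± 1.37) and PLAUR (24.03 ± 1.46) lay close together, below TFPI2 at 44.9 ± 0.368. The ratio of PLAU to SERPINE2 within a library was 0.776 ± 0.0855 in 2D and 0.230 ± 0.0102 in 3D cells. It was 0.324 ± 0.0248 and 0.578 ± 0.0207 with vehicle and DOX in tet-MUC1shRNA mammospheres, and 1.19 ± 0.00539 and 0.301 ± 0.0160 in tet-MYCshRNA mammospheres. The ratio of urokinase to this inhibitor was thus higher with DOX in one line and lower with DOX in the other, with no overlap in either.

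Counted by comparison at the adjusted p of 0.1 that the study used, 6 of the 8 members tested changed on MUC1 silencing. TFPI, TFPI2, PLAU and SERPINE2 rose, where 30.7% of all genes tested rose, and F3 and PLAT fell, where 31.6% of all genes did. Under GO-203, 4 of 8 changed. PLAU rose, against 11.1% of all genes, and PLAT, PLAUR and SERPINE2 fell, against 12.9%. On MYC silencing 8 of 9 changed, with F3, TFPI, TFPI2, PLAT and SERPINE2 up, against 30.3% of all genes, and PROCR, PLAU and PLAUR down, against 28.1%. The median log2 fold change of the tested members was 0.27 on MUC1 silencing, -0.17 under GO-203 and 0.43 on MYC silencing, and that of all genes was 0.02, 0.02 and 0.01. With an absolute log2 fold change above 1.5 as well, which 8.82%, 0.757% and 10.5% of all genes passed in these comparisons, no member passed on MUC1 silencing or under GO-203, and PROCR passed on MYC silencing.

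**Figure D4:**
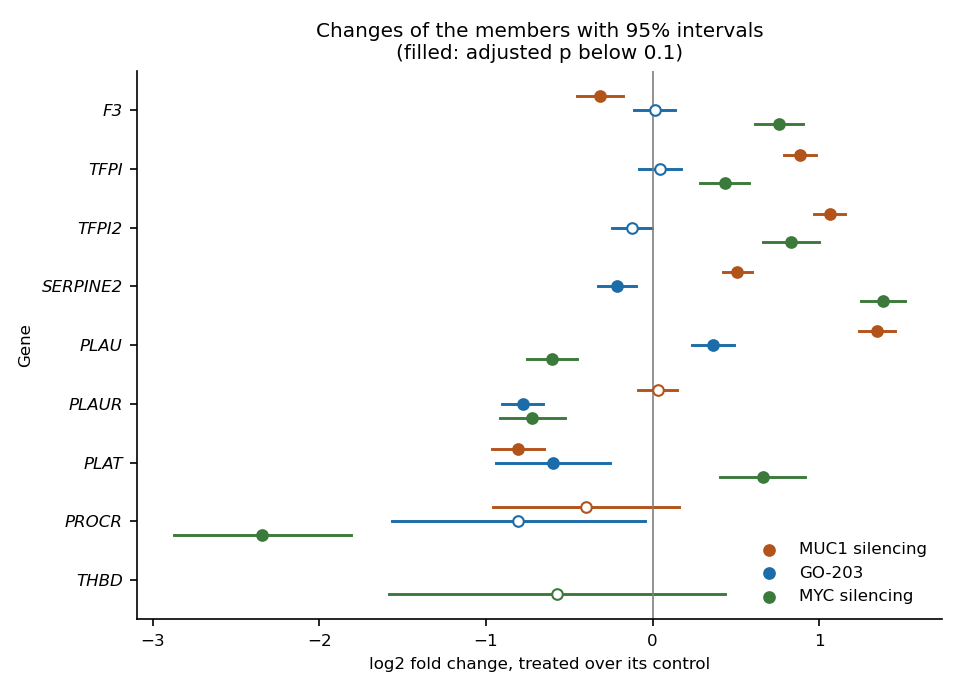
Log2 fold changes (horizontal axis) of the members (vertical axis) on MUC1 silencing, under GO-203 and on MYC silencing, each over its own control. Bars are 95% intervals and filled circles passed an adjusted p of 0.1. PLAU lies at 1.35 on MUC1 silencing and -0.60 on MYC silencing, PLAUR at -0.78 under GO-203, and PROCR at -2.34 on MYC silencing.

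The effects of the silencing of MUC1 and of MYC were compared directly as a difference of log2 fold changes. They differed for 8 of 9 members, where 52.9% of all genes tested differed in either direction, with THBD not passing, and the TFPI2 difference (adjusted p = 0.051) was lost without any 1 of 4 libraries and with all 21 libraries in one fit. With an absolute difference above 1.5 as well, which 16.2% of all genes passed, 2 members passed. F3, PLAT and PLAU changed in opposite directions, F3 and PLAT down with MUC1 and up with MYC silencing, and PLAU the reverse. TFPI, TFPI2 and SERPINE2 rose in both, and SERPINE2 rose more on MYC silencing. The lines also differ in passage, in how far the target fell (more for MUC1 than for MYC) and in starting level. With vehicle, SERPINE2 was at 476 ± 22.6 CPM in tet-MUC1shRNA and 227 ± 12.2 in tet-MYCshRNA mammospheres. The effects of GO-203 and of MUC1 silencing differed for 6 of 9 members, where 44.9% of all genes did, with SERPINE2 down under the inhibitor and up under the shRNA, and the F3 difference was not called with library size alone (0.17, adjusted p = 0.134), which moves the median of all genes by -0.15, and less that shift it was 0.32. No member differed by more than 1.5 as well, where 8.59% of all genes did. PLAU rose in both and PLAT fell in both, and the difference for PLAT of 0.21 (95% interval -0.08 to 0.49, adjusted p = 0.258) did not pass.

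Genes around the members were read from 4 lists. The first held 21 clotting factors and their inhibitors, of which 8 could be tested in 3D vs. 2D cells. There 4 rose, against 32.0% of all genes, and 2 fell, against 31.7%. PROS1, the cofactor of protein C, went from 6.23 ± 0.956 to 26.02 ± 1.63 CPM (log2 fold change 2.11, adjusted p = 4.39e-11). F8, the clotting cofactor, and GGCX, the vitamin K-dependent carboxylase, fell, with log2 fold changes of -1.31 and -1.04. On MUC1 silencing 4 of 10 tested rose and 3 fell (1 without the third vehicle or the third DOX library), against 30.7% and 31.6%, with F5 at 2.98 (mean CPM 0.306 to 2.41), F8 at 0.86 and VKORC1, which recycles vitamin K, at -1.23. Under GO-203 1 of 8 tested rose, PROS1 (0.62; 2 rose with at least 10 counts in every library), and 0 fell, against 11.1% and 12.9%. On MYC silencing 7 of 11 rose and 3 fell (1 without the second vehicle library or with at least 10 counts in every library), against 30.3% and 28.1%. Among those with a mean of at least 1 CPM, the largest rises were F8 at 2.27, PROS1 at 1.62 and the related ligand GAS6 at 1.12.

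The 4 protease-activated receptors carry the signal of thrombin and of the tissue factor complex into the cell. In 3D vs. 2D cells all 3 that could be tested fell, against 31.7% of all genes, but F2RL1 and F2RL2 passed the filter through the 2D group in which they are high, and with at least 10 counts in every library 1 fell. The thrombin receptor F2R went from 34.9 ± 0.695 to 2.50 ± 0.227 CPM (log2 fold change -3.74, adjusted p = 8.11e-15), F2RL2 from 3.32 ± 0.523 CPM to 0.0307 ± 0.0408, close to 0, and F2RL1, the receptor cleaved by the tissue factor complex and named after its values were seen, from 0.456 to 0.0565 CPM. F2R was thus highest in the group in which F3 was at 0. F2R fell further on MUC1 silencing (-2.40), under GO-203 (-0.85) and on MYC silencing (-0.66), in each case from a mean under 3 CPM. F2RL1, again named outside the rule, had 8, 2 and 0 counts with vehicle and 12, 40 and 12 with DOX in tet-MUC1shRNA libraries. It passed the filter there through the DOX group, its call was lost without the second DOX library, and with at least 10 counts in every library neither F2RL1 nor F2R was tested on MUC1 silencing.

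Of 12 genes of plasminogen, its receptors and inhibitors, 7 could be tested in each comparison. In 3D vs. 2D cells 2 rose and 4 fell, against 32.0% and 31.7% of all genes. One of the 2 was SERPINB2, an inhibitor of urokinase named after its values were seen, which had 0 counts in 2D and 0.467 CPM in 3D cells, and with at least 10 counts in every library 1 rose. SERPINI1 (neuroserpin, an inhibitor of tissue-type activator) went from 10.1 ± 1.03 to 0.328 ± 0.0499 CPM, the plasminogen receptor PLGRKT changed by -0.98 and S100A10, a plasminogen-binding partner of annexin A2, by 0.96 on the log2 scale. On MUC1 silencing 3 rose (1 with at least 10 counts in every library) and 2 fell, against 30.7% and 31.6%, with SERPINB2 at 1.45, ANXA2 at -0.34 and S100A10 at -0.25, and the last was not called with library size alone (-0.08, adjusted p = 0.315), which moves the median of all genes by 0.17, or with DESeq2 (-0.27, adjusted p = 0.141). Under GO-203 1 rose and 1 fell, against 11.1% and 12.9%. ANXA2 rose by 0.31, and the call that fell was SERPINB2, under 1 CPM in both groups and so outside the rule, which passed the filter through the 3D group (18 to 35 counts, and 5 to 6 with GO-203), so that 0 fell with at least 10 counts in every library. On MYC silencing 4 rose and 1 fell (2 without the first DOX library), against 30.3% and 28.1%. SERPINI1 went from 0.951 ± 0.0398 to 20.5 ± 0.439 CPM (log2 fold change 4.41, adjusted p = 5.22e-09), and SERPINB2 from 15.1 ± 0.445 to 3.20 ± 0.446 CPM (log2 fold change -2.26, adjusted p = 2.77e-07).

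The last list held 11 partners of the urokinase receptor and endocytic receptors that clear complexes of these proteases and their inhibitors. In 3D vs. 2D cells 3 of 10 tested rose (2 with at least 10 counts in every library) and 7 fell, against 32.0% and 31.7% of all genes. The integrin ITGA5 rose by 1.86, ITGB3 fell by 1.85 on the log2 scale, and LRP2, with 0 counts in 2D cells and so past the filter through the 3D group, was at 2.07 ± 0.427 CPM in 3D cells. LRP1, the main clearance receptor for urokinase-inhibitor complexes, was at 199.8 ± 20.3 CPM with vehicle and 26.6 ± 1.45 with DOX in tet-MUC1shRNA mammospheres, and at 47.7 ± 2.29 and 404 ± 81.1 in tet-MYCshRNA mammospheres. It fell on MUC1 silencing (log2 fold change -2.92, adjusted p = 2.18e-18) and rose on MYC silencing (3.06, adjusted p = 3.82e-08). On MUC1 silencing 5 of 10 rose and 5 fell, against 30.7% and 31.6%, with MRC2, a receptor that joins with PLAUR, at -2.15 and VLDLR at -1.50. Under GO-203 1 of 10 rose (2 without the second library of either group or with at least 10 counts in every library) and 4 fell, against 11.1% and 12.9%, led by LRP2 at -0.98, ITGA5 at -0.84 and VLDLR at -0.51. On MYC silencing 7 of 11 rose and 3 fell, against 30.3% and 28.1%, with LRP2 at 2.95 and ITGB3 at -1.89.

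The genes most like F3 were ranked by Pearson's r of log2(CPM + 1) over the 18 mammosphere libraries, among 8780 genes with a mean of at least 10 CPM. They were ANKS1B (0.983), the calcium-binding protein gene S100A6 (0.963), the secreted metalloprotease ADAMTS7 (0.961), the collagen gene COL3A1 (0.956) and ARHGAP5 (0.956). These correlations are a description, since the libraries fall into 6 groups in 2 bands of F3 level. ADAMTS7 was at 0.0416 ± 0.0449 CPM in 2D and 64.7 ± 6.16 in 3D cells, at 9.99 ± 0.390 and 59.6 ± 15.5 with vehicle and DOX in tet-MYCshRNA, and at 10.5 ± 1.32 and 8.73 ± 1.01 in tet-MUC1shRNA mammospheres. ANKS1B, at 3.42 ± 0.665 CPM in 2D and 20.9 ± 0.453 in 3D cells, was not at 0 in 2D cells, and COL3A1 was far higher in 2D, at 818 ± 155 CPM, than in 3D cells, at 85.2 ± 4.24. No other member ranked near the top. TFPI had an r of 0.48 with F3, SERPINE2 0.01, PLAUR -0.33, TFPI2 -0.65, PLAT -0.69 and PLAU -0.77.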

How the data were processed

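Reads from 21 libraries of BT-549 cells were processed by the authors with CASAVA 1.8.2 and STAR 2.7.3a on GRCh38, per the submitters' processing notes, and counted with featureCounts. The deposited values are raw counts of each gene, not normalized. Which annotation release was used, whether strand was used in counting and how reads with several matches were treated are not given in the sources used here. Cells without a value were read as 0. They are shared by the 2D and 3D libraries (6498 genes), by the libraries of each tet line, and by the GO-203 libraries alone (7587). The GO-203 libraries thus differ from their 3D controls in this respect. Whether both groups were processed together is not given in the sources used here. In the comparisons of 1 group with another, 0 genes that passed the filter lacked a value in 1 group only. The differences between effects were not checked for this. All 9 members have a value in every library. The F3 zeros in 2D cells are values in the file. Some genes of this system are not reported here.

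Members and lists were chosen with earlier results of these data known. Symbols were matched for 42252 of 42339 identifiers through GENCODE release 44, which also gave positions and exon lengths. In R 4.3.3, each comparison was fitted on its own libraries with edgeR 4.0.16 (filterByExpr, TMM factors, quasi-likelihood test, Benjamini-Hochberg adjustment over all genes tested), with calls at an adjusted p below 0.1. The fit was tested on simulated data. From each list, at most 3 genes per comparison are named, those with the largest change among called genes with a mean of at least 1 CPM, and genes named outside that rule are marked. Alternatives were DESeq2 1.42.0, RLE factors, library size alone, other count filters, one fit over all 21 libraries, a replicate block, a fold threshold and each library left out in turn. Library size alone less the shift of all genes was added after seeing the data. Same-numbered libraries did not deviate together (correlations of -0.176 to 0.0808), so no pairing was assumed.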

Additional observations from a re-analysis of the deposited data

Results flagged for a closer look

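The difference of log2 fold changes was tested for each member between comparisons, as an interaction in edgeR's quasi-likelihood test, and the members that passed an adjusted p of 0.1 are given here. Between MUC1 and MYC silencing (the former minus the latter), F3 differed by -1.09 (adjusted p = 1.3e-07), PLAT by -1.48 (adjusted p = 8.38e-08) and SERPINE2 by -0.89 (adjusted p = 1.84e-08). PLAU differed by 1.94 (adjusted p = 9.56e-12), PROCR by 1.93 (adjusted p = 1.92e-04) and PLAUR by 0.74 (adjusted p = 2.69e-05). The differences were smaller for the Kunitz-type inhibitors, at 0.44 for TFPI (adjusted p = 1.6e-04) and 0.22 for TFPI2 (adjusted p = 0.051), the second of which was lost without any 1 of 4 libraries and with all 21 libraries in one fit.

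Between GO-203 and MUC1 silencing (the former minus the latter), TFPI2 differed by -1.19 (adjusted p = 4.93e-13), PLAU by -0.99 (adjusted p = 4.16e-10), TFPI by -0.85 (adjusted p = 1.05e-09), PLAUR by -0.81 (adjusted p = 1.84e-08) and SERPINE2 by -0.73 (adjusted p = 4.5e-09). F3 differed by 0.33 (adjusted p = 0.00698), which was not called with library size alone (0.17, adjusted p = 0.134), a scaling that moves the median of all genes by -0.15, and was 0.32 less that shift. The groups of 3 libraries are too small for a check of single libraries that stand apart.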

How the results depend on the processing

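Of 366 member values with a library left out and 316 under the other alternatives, 357 and 309 kept their direction and their side of the threshold. With an absolute log2 fold change above 1.5 as well, the members changed were 0 on MUC1 silencing, 0 under GO-203 and 1 on MYC silencing, against 8.82%, 0.757% and 10.5% of all genes. Those that differed were 2 between MUC1 and MYC silencing and 0 between GO-203 and MUC1 silencing, against 16.2% and 8.59% of all genes. The F3 log2 fold change under GO-203 was -0.019 with all 21 libraries in one fit and -0.032 to 0.046 with each library left out in turn, and that of TFPI was -0.0039 to 0.087. The log2 lower bound of F3 in 3D over 2D cells, 11.24, was 11.18 to 11.36 with each library left out. With library size alone, PLAUR was called on MUC1 silencing (0.20, adjusted p = 0.00305) and the F3 difference between GO-203 and MUC1 silencing was not called (0.17, adjusted p = 0.134), where that scaling moves the median of all genes by 0.17 and -0.15 (by 0.20 between MUC1 and MYC silencing). TFPI2 was called under GO-203 with DESeq2 (-0.13, adjusted p = 0.087). PROCR was called under GO-203 with all 21 libraries in one fit (-0.82, adjusted p = 0.0993) and without the third GO-203 library (-1.36, adjusted p = 0.0319), and THBD on MYC silencing without the first DOX library (-1.07, adjusted p = 0.0724). The TFPI2 difference between MUC1 and MYC silencing was lost with all 21 libraries in one fit (0.19, adjusted p = 0.105) and without any 1 of 4 libraries (0.15 to 0.21). The cause was not tested. The numbers do not pair the libraries. With the replicate block the member values kept their direction and their side of the threshold, except that PROCR was called under GO-203 (-0.90, adjusted p = 0.0572). Depth limits THBD and PROCR, counted at 0 to 64 and 10 to 281 reads.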
